A study of Gallus gallus with 12 samples.

Results

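Edar, TNFRSF19 and NFKBIA are 3 genes of the ectodysplasin (EDA) pathway and its surroundings that were measured in embryonic chicken skin. They were taken by symbol, without regard to case, from a table of 12297 transcript rows, and each symbol matched 1 row. The rows were ENSGALT00000027137.4 for Edar, ENSGALT00000027657.4 for TNFRSF19 and ENSGALT00000045536.1 for NFKBIA. Levels were followed over 6 groups of White Leghorn embryos with 2 libraries each, 12 libraries in all. Scale-forming skin came from the tarsometatarsus, the scaled part of the leg, at embryonic day 11 (scale E11) and day 9 (scale E9). Feather-forming skin came from the wing at day 9 (wing E9), the thigh at day 9 (thigh E9), and the back at day 9 (dorsal E9) and day 7 (dorsal E7). Hamburger and Hamilton stages were 37 at day 11, 35 at day 9 and 31 at day 7. All embryos were untreated, no group carried an allele or agent, and nothing says whether the 2 libraries of a group came from separate embryos or from pools. The p-values below therefore measure the spread between these samples, which may be technical.

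EDA is a ligand of the tumour necrosis factor family made by skin, and EDAR is its receptor on the epidermis. EDAR passes the signal through adaptor and kinase proteins to the kinase complex IKK, which frees the transcription factor NF-kB from its inhibitor IkB-alpha. IkB-alpha is the product of NFKBIA, which is itself a target gene of NF-kB and so is often read as a feedback gene. TNFRSF19, also called TROY, is a receptor of the same family that is known from embryonic mouse skin and hair follicles, where it overlaps with Edar in function. In skin appendages the pathway is best known from the placode, the thickening of the epidermis from which a feather, hair or scale grows.

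The recovered depth was 13164610 to 20641981 reads per library. Values are read counts scaled to an effective library size (CPM), which are not divided by transcript length, so levels of different genes are not compared with each other. The titles of all 12 samples speak of dermis, but their tissue labels say skin, the word used here. Both kinds of marker were present: 23 keratinocyte markers summed to 88.0 to 728 CPM per library and 12 dermal fibroblast markers to 13310 to 34950 CPM. In bulk tissue, fewer cells of a type and less RNA per cell cannot be told apart. How much epidermis each sample held is not given, so it cannot be told apart from the level of epidermal genes such as Edar. With dermis in the titles, levels of such genes here are not to be read as those of whole skin. Both dorsal E9 libraries lacked transcripts of the female W chromosome, with HINTW (ENSGALT00000036310.2) at 0.15 and 0.26 CPM against 28.9 to 146 CPM in the other 10 libraries. Dorsal E9 and embryo sex therefore cannot be told apart. Thigh E9 replicate 2 also stood apart, with a column total of 1210599 against 958975 to 1010021 in the other libraries. Its Spearman correlation across genes with replicate 1 was 0.970, while replicates of the other groups correlated at 0.987 to 0.996.

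Edar, the receptor of the EDA-A1 form of the ligand, was high in dorsal E9 and low in each of the other groups. Edar stood at 7.34 and 4.27 CPM in scale E11, 2.70 and 9.92 CPM in scale E9, 5.50 and 10.1 CPM in wing E9, and 3.77 and 4.39 CPM in thigh E9. In the back it stood at 61.6 and 70.2 CPM in dorsal E9, against 4.86 and 5.86 CPM in dorsal E7. The lowest dorsal E9 library was thus above the highest library of any other group, and the other 5 groups overlapped one another in part. Behind these values were 39 to 212 reads per library outside dorsal E9 and 1207 and 1368 reads in dorsal E9.

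Within the back, Edar averaged 65.9 ± 6.07 CPM in dorsal E9 and 5.36 ± 0.707 CPM in dorsal E7 (SD, n = 2 each). The log2 fold change of CPM + 1 was 3.40 ± 0.41 (standard error; 95% interval 2.51 to 4.29), with an adjusted p of 6.87e-05 in limma. In scale skin Edar averaged 5.81 ± 2.17 CPM in scale E11 and 6.31 ± 5.11 CPM in scale E9, a difference of 0.06 ± 0.41 with an interval of -0.83 to 0.95 (adjusted p 0.969 in limma). The scale difference minus the dorsal one was -3.34 ± 0.58 (adjusted p 0.00482 in limma). This contrast of the changes was -4.12 without scale E9 replicate 1 and -2.56 without its replicate 2, and was called in both cases. The scale interval runs between days 9 and 11 and the dorsal one between days 7 and 9, so the age of the embryos is part of that difference. Only dorsal E9 lacked W transcripts, so embryo sex cannot be told apart from age in the dorsal change.

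**Figure D1:**
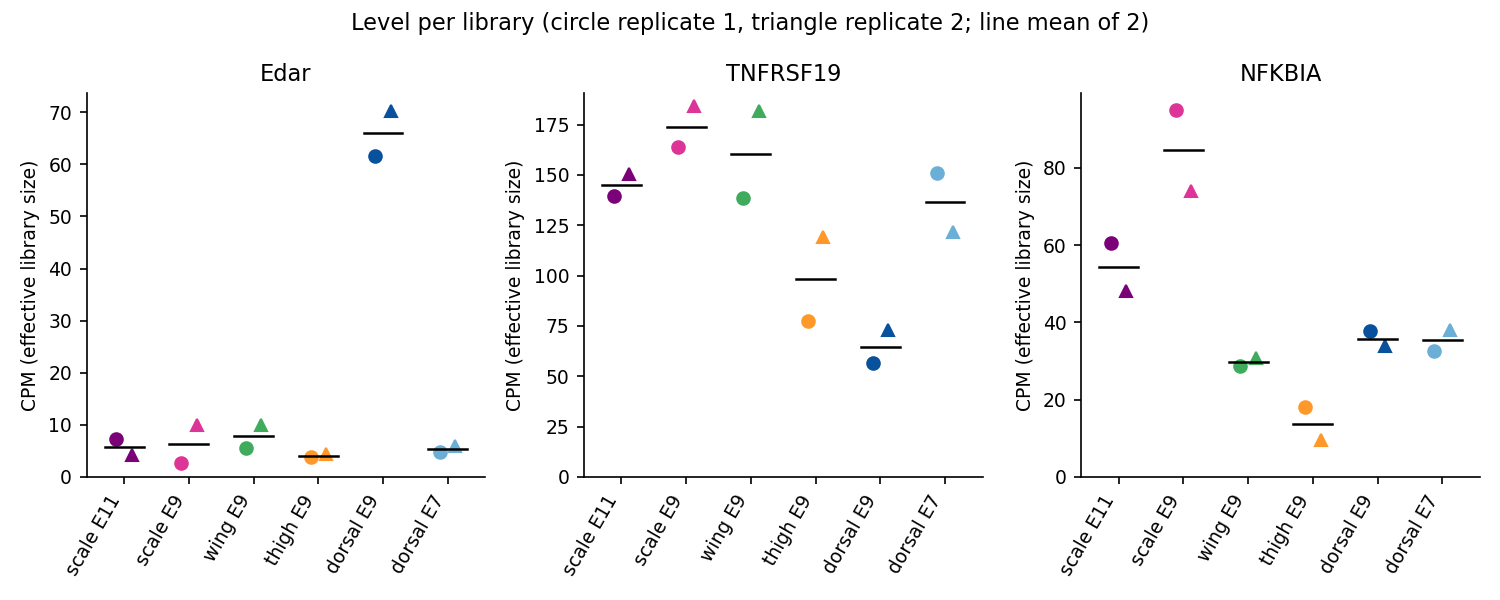
Level of Edar, TNFRSF19 and NFKBIA in CPM (y axis, a separate scale per gene) in each of 12 libraries, by group (x axis); circles are replicate 1, triangles replicate 2 and black lines the mean of 2 libraries. Edar is at 61.6 and 70.2 CPM in dorsal E9 and at most 10.1 CPM elsewhere, TNFRSF19 is lowest in dorsal E9, and NFKBIA is highest in scale E9 and lowest in thigh E9.

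Edar was called in all 5 pairwise comparisons that include dorsal E9, and in none of the other 10 in limma, edgeR or DESeq2, where the count at an unadjusted p under 0.05 was also 0. Scale E11, scale E9, wing E9 and thigh E9 were below dorsal E9 by log2 fold changes of -3.33, -3.39, -2.98 and -3.72, each with a standard error of 0.41. Adjusted p-values for these 4 comparisons lay between 3.93e-05 and 0.000238. In the 10 comparisons that leave dorsal E9 out, differences ran between -0.42 (scale E9 against wing E9) and 0.74 (wing E9 against thigh E9), with adjusted p-values of 0.221 to 0.998. The order of the group means was dorsal E9, wing E9, scale E9, scale E11, dorsal E7 and thigh E9, and the last 5 did not differ beyond their spread. The 95% intervals of these 10 differences reached as low as -1.31 and as high as 1.63, so modest differences between the low groups were not detectable.

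The 2 scale E9 libraries differed in Edar beyond counting error. Replicate 1 had 39 reads, or 2.70 CPM with an exact Poisson 95% interval of 1.92 to 3.69 CPM, and replicate 2 had 170 reads, or 9.92 CPM with an interval of 8.49 to 11.5 CPM. The labels name no molecular identifiers, and these intervals cover only the error of counting reads. The difference between scale E9 and dorsal E9 was -2.61 without replicate 1 and -4.17 without replicate 2, and was called in both cases.

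Set against the mean of the 3 feather-forming regions of the same day, Edar was lower in scale E9 (-1.16 ± 0.34, adjusted p 0.0309 in limma), and dorsal E9 carried that difference. Without the dorsal E9 libraries it was -0.05 (adjusted p 0.949), and the separate values were 0.33 ± 0.41 against thigh E9 and -0.42 ± 0.41 against wing E9. The call also ended without scale E9 replicate 1 (-0.38, adjusted p 0.558), dorsal E9 replicate 2 (-1.13, adjusted p 0.0599) or wing E9 replicate 2 (-1.03, adjusted p 0.061), while without scale E9 replicate 2 the difference was -1.94. It was not reached with edgeR on recovered reads (-1.0, adjusted p 0.102) or with only the 8 libraries of the groups compared (adjusted p 0.0598).

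Since EDAR is known from the epidermis, its level was set beside the summed level of the 23 keratinocyte markers in each library. The markers summed to 337 and 239 CPM in scale E11, 309 and 728 CPM in scale E9, 135 and 338 CPM in wing E9, and 334 and 261 CPM in thigh E9. They summed to 197 and 211 CPM in dorsal E9, against 88.0 and 115 CPM in dorsal E7. Dorsal E9 was not among the libraries with the highest sums of these markers. The sum does not tell the amount of epidermis apart from the level of each marker within it. Per 100 CPM of these markers, Edar stood at 31.3 and 33.2 CPM in dorsal E9 and at 0.874 to 5.52 CPM in the other 10 libraries. Among those 10, the highest were dorsal E7 with 5.52 and 5.11 CPM, and the lowest were scale E9 replicate 1 with 0.874 CPM and thigh E9 replicate 1 with 1.13 CPM. In scale E11, scale E9, wing E9, dorsal E9 and dorsal E7 the replicate with more keratinocyte marker signal also had more Edar, and in thigh E9 it did not.

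An alternative fit, added after the data were seen, took the mean log2(CPM + 1) of the keratinocyte markers in each library as a covariate. The fit also held 1 mean per group, so the slope of the covariate rested only on differences between replicates of a group. That slope was then applied between groups, among them dorsal E7 and dorsal E9, whose marker sums did not overlap. With this keratinocyte marker level Edar was still higher in dorsal E9 than in dorsal E7 (2.33, adjusted p 0.000722 in limma). Scale E11, scale E9, wing E9 and thigh E9 were below dorsal E9 with this covariate too (-3.69, -4.32, -2.85 and -3.90, with adjusted p-values of 1.31e-06, 2.28e-06, 8.84e-06 and 6.66e-07). The contrast of the 2 changes with age was not called with it (-1.70, adjusted p 0.203). The difference between scale E9 and the mean of 3 feather regions was larger with it (-2.07, adjusted p 0.0007), and scale E9 was then below wing E9 (-1.47, adjusted p 0.0361). Calls were also gained for wing E9 over thigh E9 (1.05, adjusted p 0.0165) and for thigh E9 below dorsal E7 (-1.57, adjusted p 0.024). With it 3 of the 10 comparisons that leave dorsal E9 out were called, against 0 without it.

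**Figure D2:**
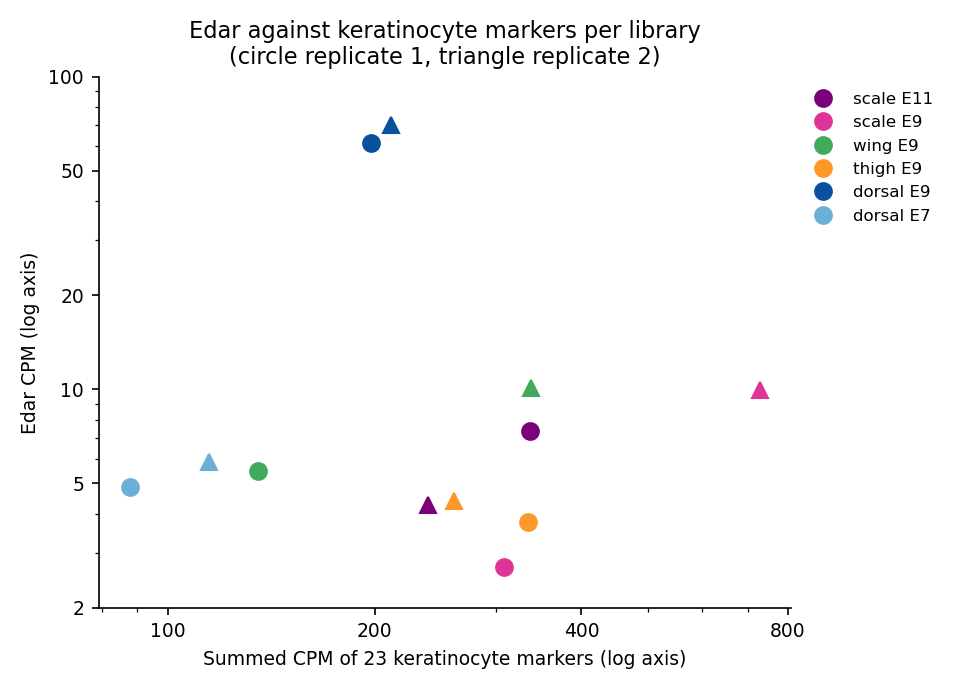
Edar level in CPM (y axis, log) against the summed CPM of 23 keratinocyte markers (x axis, log) in each of 12 libraries, coloured by group; circles are replicate 1 and triangles replicate 2. The 2 dorsal E9 libraries lie at 61.6 and 70.2 CPM of Edar at 197 and 211 CPM of markers, apart from the other 10 libraries.

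TNFRSF19 had the opposite low point: dorsal E9 was its lowest group. It stood at 139 and 150 CPM in scale E11, 164 and 184 CPM in scale E9, 139 and 182 CPM in wing E9, and 77.7 and 119 CPM in thigh E9. In the back it stood at 56.5 and 72.9 CPM in dorsal E9, against 151 and 122 CPM in dorsal E7. Both dorsal E9 libraries lay below all 10 others, thigh E9 lay next above them, and the remaining 4 groups overlapped in part.

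TNFRSF19 averaged 64.7 ± 11.6 CPM in dorsal E9 and 136 ± 20.8 CPM in dorsal E7 (SD, n = 2 each), a fall of the log2 value by 1.07 (standard error 0.22, 95% interval -1.54 to -0.60, adjusted p 0.00337 in limma). That call ended without dorsal E7 replicate 1 (-0.91, adjusted p 0.0542) or dorsal E9 replicate 1 (-0.89, adjusted p 0.0539). Scale E11 differed from scale E9 by -0.26 ± 0.22 with an interval of -0.73 to 0.21 (adjusted p 0.617). The contrast of the changes with age, 0.81 ± 0.31, was not called (adjusted p 0.197), so the changes of TNFRSF19 were not shown to differ between scale and dorsal skin. With only the libraries of those 4 groups its adjusted p was 0.0474.

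Against the mean of the 3 feather regions TNFRSF19 was higher in scale E9, with 174 ± 14.4 CPM there (0.80 ± 0.18, 95% interval 0.41 to 1.18, adjusted p 0.00704 in limma). The difference was 1.42 ± 0.22 against dorsal E9, 0.85 ± 0.22 against thigh E9 (adjusted p 0.0143) and 0.13 ± 0.22 against wing E9, where the interval was -0.34 to 0.60 and no call was made. Without the dorsal E9 libraries the difference from the feather mean was 0.49 (adjusted p 0.118), and without scale E9 replicate 2 it was 0.71 (adjusted p 0.104). With the keratinocyte marker level as a covariate it was 0.73 (adjusted p 0.124). The call against thigh E9 also ended without scale E9 replicate 2 (0.76, adjusted p 0.10), with the covariate (0.79, adjusted p 0.0807) and with only the groups compared (adjusted p 0.0744).

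Wing E9 was above dorsal E9 in TNFRSF19 by 1.29 ± 0.22 and above thigh E9 by 0.72 ± 0.22 (adjusted p 0.000984 and 0.0334 in limma). Scale E11 was above dorsal E9 by 1.16 ± 0.22 (adjusted p 0.00262). The call of wing E9 against thigh E9 ended without thigh E9 replicate 1 (0.41, adjusted p 0.123), wing E9 replicate 1 (0.91, adjusted p 0.0588) or wing E9 replicate 2 (0.52, adjusted p 0.228), and with only the groups compared (adjusted p 0.166). Thigh E9 was not separated from dorsal E9 (0.57 ± 0.22, adjusted p 0.0621), scale E11 (adjusted p 0.060) or dorsal E7 (-0.49 ± 0.22, adjusted p 0.129). Each of these turned into a call without 1 thigh library: 0.88 for thigh E9 over dorsal E9 without replicate 1 (adjusted p 0.00391), 0.89 for scale E11 over thigh E9 without replicate 2 (adjusted p 0.0104), and -0.80 for thigh E9 against dorsal E7 without replicate 2 (adjusted p 0.0225). The order of the means was scale E9, wing E9, scale E11, dorsal E7, thigh E9 and dorsal E9, and no neighbours in that order differed past the threshold.

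NFKBIA matched neither receptor over all groups. It was highest in scale E9, as TNFRSF19 was by its mean, and lowest in thigh E9, as Edar was by its mean. It stood at 60.7 and 48.1 CPM in scale E11, 95.01 and 74.07 CPM in scale E9, 28.7 and 30.8 CPM in wing E9, and 18.0 and 9.62 CPM in thigh E9. In the back it stood at 37.7 and 33.9 CPM in dorsal E9, against 32.6 and 38.1 CPM in dorsal E7. Both scale E9 libraries lay above all 10 others, scale E11 came next, the wing and back libraries lay between 28.7 and 38.1 CPM, and both thigh E9 libraries lay below all others.

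NFKBIA averaged 84.5 ± 14.8 CPM in scale E9, against 29.8 ± 1.51 CPM in wing E9, 13.8 ± 5.94 CPM in thigh E9 and 35.8 ± 2.66 CPM in dorsal E9 (SD, n = 2 each). Relative to the mean of those 3 regions the difference was 1.75 ± 0.20 (95% interval 1.32 to 2.18, adjusted p 5.19e-05 in limma). Against each region alone it was 1.47 ± 0.25 for wing E9, 2.58 ± 0.25 for thigh E9 and 1.21 ± 0.25 for dorsal E9, with adjusted p-values of 0.00195, 1.46e-05 and 0.0029. NFKBIA was the only one of the 3 genes called in the same direction against each feather region. The difference from the feather mean was called under all 27 alternatives, with values of 1.34 to 2.02 and a highest adjusted p of 0.00322. Without the dorsal E9 libraries it was 2.02, and with the keratinocyte marker level as a covariate 1.65 (adjusted p 0.00321), though the separate call against wing E9 was then narrowly missed (1.35, adjusted p 0.0506). In scale E9 and dorsal E9 the replicate with less keratinocyte marker signal had more NFKBIA. In scale E11, wing E9, thigh E9 and dorsal E7 the replicate with more of that signal had more NFKBIA.

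Dorsal E9 did not differ from dorsal E7 in NFKBIA beyond the spread, with 35.8 ± 2.66 CPM in dorsal E9 and 35.3 ± 3.88 CPM in dorsal E7 (SD, n = 2 each; 0.02 ± 0.25, 95% interval -0.51 to 0.55, adjusted p 0.970 in limma). The same pair of groups differed in Edar by 3.40. Scale E11 averaged 54.4 ± 8.92 CPM, and its difference from scale E9 was -0.63 ± 0.25 with an interval of -1.16 to -0.10 (adjusted p 0.190). Without thigh E9 replicate 1 or replicate 2, which are no part of that comparison but enter the shared estimate of the spread, the same difference was called (adjusted p 0.0305 and 0.0298). The contrast of the changes with age was -0.65 ± 0.35 (adjusted p 0.426).

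Thigh E9 was below dorsal E9 (-1.37 ± 0.25), below dorsal E7 (-1.35 ± 0.25) and below wing E9 (1.11 ± 0.25 for wing over thigh) in NFKBIA, with adjusted p-values of 0.00125, 0.00221 and 0.00694 in limma. These 3 calls held without either thigh library, but with only the libraries compared those of thigh E9 against dorsal E7 and of wing E9 against thigh E9 were missed (adjusted p 0.0604 and 0.0878). Wing E9 was not separated from dorsal E9 (-0.26 ± 0.25) or dorsal E7 (-0.24 ± 0.25). Scale E9 was above dorsal E7 (1.23 ± 0.25, adjusted p 0.0039), a call that ended with the keratinocyte covariate (1.01, adjusted p 0.598) or without dorsal E7 replicate 1 (1.12, adjusted p 0.0526). Scale E11 was above thigh E9 (1.95 ± 0.25) and above wing E9 (0.84 ± 0.25, adjusted p 0.0378), but the call over wing E9 ended in 8 of 12 fits that left out 1 library, among them those without scale E11 replicate 1 (0.67, adjusted p 0.218), scale E11 replicate 2 (1.0, adjusted p 0.0738), wing E9 replicate 1 (0.79, adjusted p 0.21), wing E9 replicate 2 (0.89, adjusted p 0.114) and any 1 dorsal library (0.84, adjusted p 0.0516 to 0.0575). It also ended without both dorsal E9 libraries (adjusted p 0.0515) and with the keratinocyte covariate (0.79, adjusted p 0.0917). Scale E11 stood 0.58 and 0.60 above dorsal E9 and dorsal E7 (adjusted p 0.174 and 0.113). Without thigh E9 replicate 1 or 2 these adjusted p-values were 0.0297 and 0.029 for dorsal E9, and 0.0167 and 0.0163 for dorsal E7. The order of the means was scale E9, scale E11, dorsal E9, dorsal E7, wing E9 and thigh E9, and of the neighbours in that order only wing E9 and thigh E9 differed past the threshold.

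**Figure D3:**
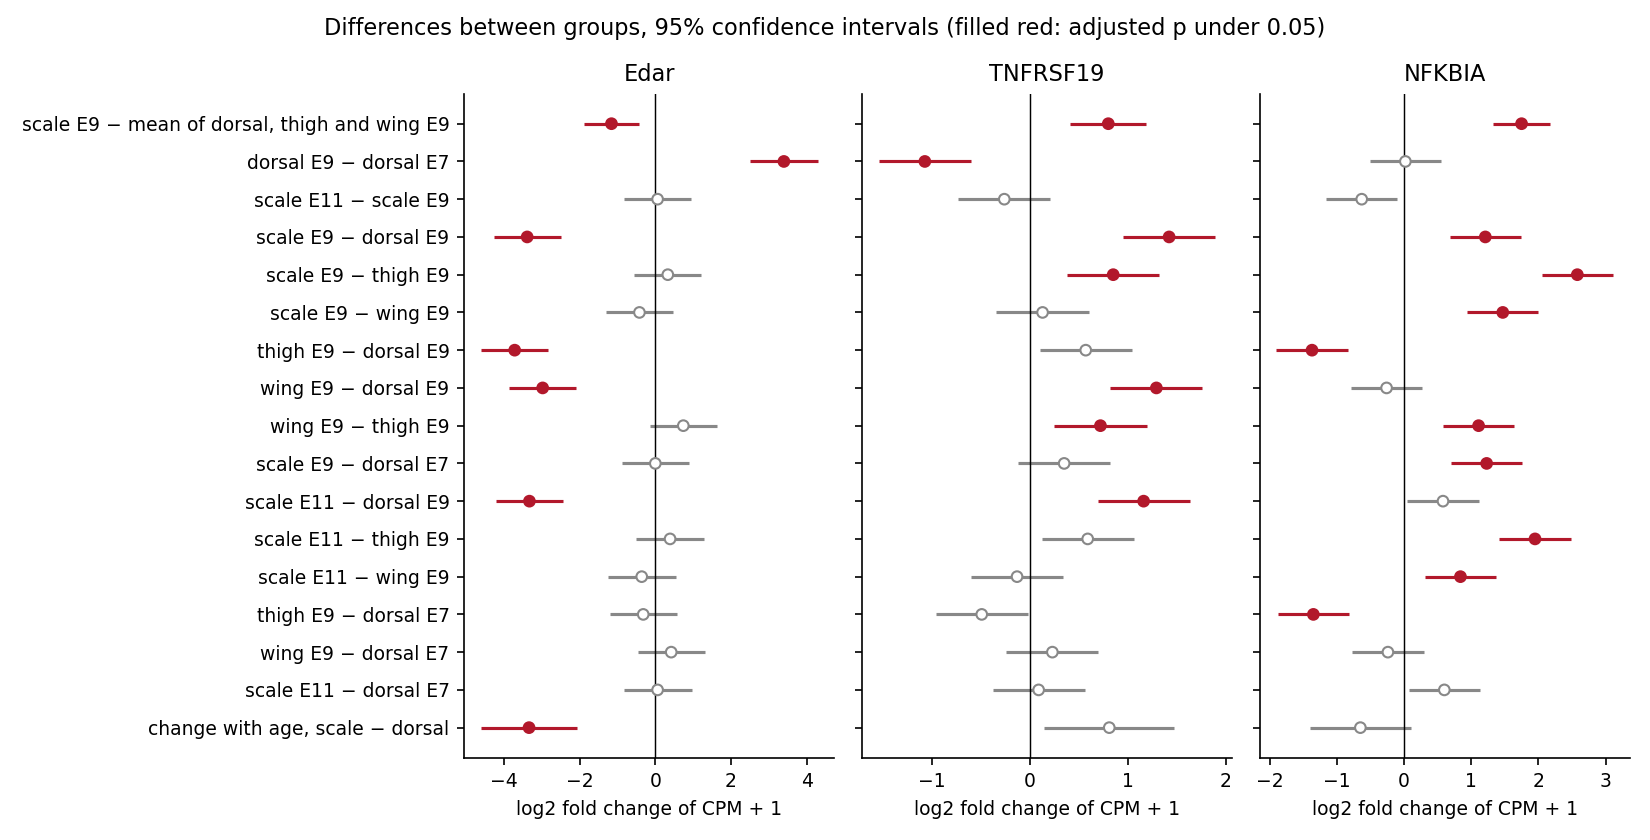
Log2 fold change of CPM + 1 (x axis) with its 95% interval for Edar, TNFRSF19 and NFKBIA in 17 comparisons (y axis), the first group named minus the second; filled red points have an adjusted p under 0.05 in limma. Edar is called in each comparison with dorsal E9, and NFKBIA is called above every feather group in scale E9.

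The share of all rows called varied widely between comparisons, and the counts for the 3 genes are to be read against it. Of the 12277 rows tested, 16.6% were called in scale E9 against the feather mean, where 3 of the 3 genes were called. In dorsal E9 against dorsal E7 2 of the 3 genes were called, against 20.1% of rows, and in scale E11 against scale E9 none was in limma, edgeR or DESeq2, against 5.83% of rows. At an unadjusted p under 0.05 that last count was 1, NFKBIA. The contrast of the changes with age called 4.98% of rows and 1 gene, Edar. Scale E9 was called in 3 genes against dorsal E9 (21.8% of rows), in 2 against thigh E9 (24.4%), in 1 against wing E9 (8.89%) and in 1 against dorsal E7 (13.3%). Scale E11 was called in 2 genes against dorsal E9 (11.9%), in 1 against thigh E9 (28.8%), in 1 against wing E9 (14.4%) and in none against dorsal E7 (18.7%), where 1 gene, NFKBIA, had an unadjusted p under 0.05. Thigh E9 was called in 2 genes against dorsal E9 (30.0%) and in 1 against dorsal E7 (19.2%). Wing E9 was called in 2 against dorsal E9 (20.1%), in 2 against thigh E9 (20.9%) and in none against dorsal E7 (13.4%), where no gene had an unadjusted p under 0.05. The last counts of none were the same with edgeR and DESeq2. These comparisons share libraries with one another. With 3 genes, such counts do not set them apart from other rows.

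The rest of the EDA pathway was read from a list of 18 genes, of which 15 were measured and passed the filter; EDARADD, IKBKG and RELA were not matched and are not analysed here. In scale E9 against the feather mean, where 16.6% of all rows were called, 3 of the 15 were higher (TNFRSF19, NFKBIA and NFKB1). Of the 15, 1 was lower (Edar), and the median log2 fold change was 0.03, against -0.014 over all rows. In dorsal E9 against dorsal E7 1 was higher (Edar) and 1 lower (TNFRSF19), where 20.1% of all rows were called. The median was 0.09, against 0.031 over all rows. In scale E11 against scale E9 none was called in limma, edgeR or DESeq2, where limma called 5.83% of all rows. In that comparison 1 had an unadjusted p under 0.05, and the median was 0.00 against 0.008. Without the thigh E9 libraries, an alternative added after the data were seen, EDA (0.51, adjusted p 0.0307), EDA2R (0.82, adjusted p 0.0361) and MAP3K7 (0.35, adjusted p 0.0384) were called higher in dorsal E9 as well, which made 4, and the count was also 4 without thigh E9 replicate 2 alone. The fold changes of EDA, EDA2R and MAP3K7 were the same in the main fit, where none of them was called. No share of all rows called is set beside the counts of the fits that leave libraries out. Those counts therefore do not set the list apart from other rows. Without the dorsal E9 libraries the first comparison had 1 higher (NFKBIA) and none lower. Without thigh E9 replicate 2 it had 3 higher and 2 lower, the second being EDA2R (-0.70, adjusted p 0.0474).

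The ligand EDA was measured in every group. It stood at 95.9 and 79.3 CPM in scale E11, 75.5 and 79.7 CPM in scale E9, 49.9 and 48.7 CPM in wing E9, and 92.2 and 37.9 CPM in thigh E9. In the back it stood at 100.3 and 77.6 CPM in dorsal E9, against 54.0 and 70.1 CPM in dorsal E7. It differed by 0.28 ± 0.25 between scale E9 and the feather mean and by 0.51 ± 0.30 between dorsal E9 and dorsal E7 (adjusted p 0.512 and 0.278 in limma), and its thigh libraries lay farther apart than any of those group means. EDA2R, the receptor of the EDA-A2 form, was near the lower limit of the table, with 0.41 to 3.22 CPM over the 12 libraries. It differed by -0.58 ± 0.24 in scale E9 against the feather mean and by 0.82 ± 0.29 in dorsal E9 against dorsal E7 (adjusted p 0.128 and 0.0666).

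Transcripts of the proteins that carry the signal inside the cell were measured in every group. TRAF6, the adaptor ligase that acts below EDAR, stood at 6.39 to 11.2 CPM and TRAF2 and TRAF3, other adaptors of the receptor family, at 15.7 to 30.1 and 4.79 to 9.98 CPM. TAB1, TAB2 and TAB3 bind the kinase TAK1, the product of MAP3K7, which stood at 147 to 280 CPM. CHUK and IKBKB encode the 2 catalytic subunits of IKK, and they stood at 74.1 to 92.2 and 48.8 to 61.9 CPM. None of these 9 genes was called in the 3 comparisons of the preceding paragraphs, which called 16.6%, 20.1% and 5.83% of all rows. Their log2 fold changes there lay between -0.49 (TRAF3 in scale E9 against the feather mean) and 0.35 (MAP3K7 in dorsal E9 against dorsal E7).

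NFKB1, a precursor and subunit of NF-kB, was the remaining pathway gene called higher in scale E9, with 57.4 and 59.5 CPM there. It stood at 54.5 and 56.7 CPM in scale E11, 46.4 and 48.5 CPM in wing E9 and 53.8 and 33.1 CPM in thigh E9. In the back it stood at 28.7 and 30.3 CPM in dorsal E9, against 30.2 and 31.8 CPM in dorsal E7. The difference between scale E9 and the feather mean was 0.57 ± 0.16 (adjusted p 0.0266 in limma). Its call ended without scale E9 replicate 1 (0.60, adjusted p 0.127), scale E9 replicate 2 (0.55, adjusted p 0.173), wing E9 replicate 1 (0.56, adjusted p 0.0588), wing E9 replicate 2 (0.58, adjusted p 0.0503) or dorsal E9 replicate 1 (0.56, adjusted p 0.0545). It also ended without the dorsal E9 libraries (0.38, adjusted p 0.197), with the keratinocyte covariate (0.45, adjusted p 0.372) and with only the groups compared (adjusted p 0.0677).

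**Figure D4:**
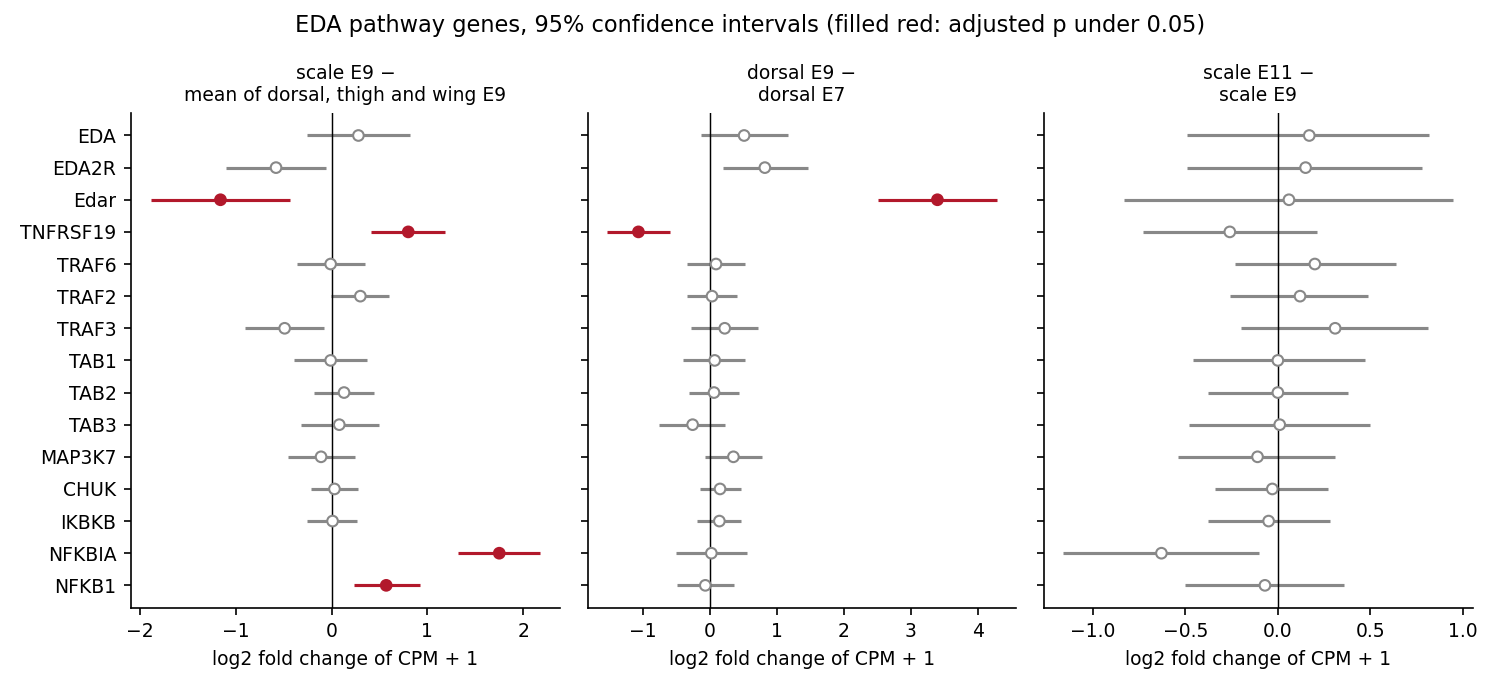
Log2 fold change of CPM + 1 (x axis, a separate scale per panel) with its 95% interval for 15 measured EDA pathway genes (y axis), in scale E9 minus the mean of 3 feather regions, dorsal E9 minus dorsal E7, and scale E11 minus scale E9; filled red points have an adjusted p under 0.05 in limma. Edar, TNFRSF19, NFKBIA and NFKB1 are called in the first comparison, Edar and TNFRSF19 in the second and none in the third.

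A second list held inhibitors, feedback genes and subunits of NF-kB, 14 of its 21 genes being measured. In scale E9 against the feather mean 4 were higher and none lower, where 16.6% of all rows were called, and the median was 0.18 against -0.014 over all rows. They were NFKBIA, TRAF1 (0.72 ± 0.18), an adaptor induced by NF-kB, NFKBIZ (0.63 ± 0.19), a nuclear member of the inhibitor family, and NFKB1. TRAF1 stood at 12.8 and 9.69 CPM in scale E9, against 8.79 and 6.32 CPM in wing E9, 6.65 and 6.76 CPM in thigh E9 and 5.62 and 4.83 CPM in dorsal E9, and its call ended without scale E9 replicate 1 (0.53, adjusted p 0.215 in limma) or without the dorsal E9 libraries (0.59, adjusted p 0.0782). NFKBIZ stood at 16.7 and 22.2 CPM in scale E9, against 19.1 and 16.5 CPM in wing E9, 6.53 and 5.23 CPM in thigh E9 and 15.8 and 17.0 CPM in dorsal E9. Thigh E9 carried that difference, which was 0.16 without the thigh libraries (adjusted p 0.584). Its call also ended without scale E9 replicate 1 (0.83, adjusted p 0.0501), scale E9 replicate 2 (0.44, adjusted p 0.328), dorsal E9 replicate 1 (0.61, adjusted p 0.0655), dorsal E9 replicate 2 (0.65, adjusted p 0.0531) or wing E9 replicate 2 (0.60, adjusted p 0.0776), and with the keratinocyte covariate (0.52, adjusted p 0.371).

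In dorsal E9 against dorsal E7 1 gene of this list was lower and none higher, where 20.1% of all rows were called (median 0.11, against 0.031 over all rows). It was BIRC2, a ligase of the receptor complexes, with 81.5 and 82.4 CPM in dorsal E9, against 116 and 129 CPM in dorsal E7 (-0.57 ± 0.14, adjusted p 0.0123 in limma). Its call ended in each of the 4 fits without 1 dorsal library (-0.64 to -0.50, adjusted p 0.0559 to 0.14) and with the keratinocyte covariate (-0.57, adjusted p 0.136). In scale E11 against scale E9 none of the 14 was called in limma, edgeR or DESeq2, where limma called 5.83% of all rows (median 0.02, against 0.008 over all rows), and 1 had an unadjusted p under 0.05.

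Of 24 genes of the TNF receptor family 15 were measured. In scale E9 against the feather mean 3 were higher and 4 lower, against 16.6% of all rows called (median -0.14, and -0.014 over all rows). In dorsal E9 against dorsal E7 4 were higher and 2 lower, against 20.1% of all rows (median 0.32, and 0.031 over all rows). In scale E11 against scale E9 1 was higher, against 5.83% of all rows (median 0.06, and 0.008 over all rows). NGFR, the low-affinity neurotrophin receptor, was the other member with a large difference in the back. It stood at 190 and 224 CPM in dorsal E9, against 15.6 and 18.0 CPM in dorsal E7 (3.54 ± 0.25, adjusted p 6.75e-07 in limma). Unlike Edar, NGFR was also high outside dorsal E9, with 183 and 184 CPM in scale E11, 115 and 66.4 CPM in scale E9, 180 and 153 CPM in wing E9 and 160 and 100.4 CPM in thigh E9.

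NGFR was called in scale skin with age (1.06 ± 0.25, adjusted p 0.0253 in limma) and against the feather mean (-0.89 ± 0.21, adjusted p 0.00876). The call with age ended without scale E9 replicate 2 (0.67, adjusted p 0.284), scale E11 replicate 1 (1.06, adjusted p 0.115) or scale E11 replicate 2 (1.06, adjusted p 0.164), and the other without scale E9 replicate 2 (-0.50, adjusted p 0.222) or the dorsal E9 libraries (-0.72, adjusted p 0.0565). With the keratinocyte covariate neither was called (0.90, adjusted p 0.108, and -0.64, adjusted p 0.242). TNFRSF11B, the decoy receptor osteoprotegerin, was lower in scale E9, with 6.16 and 7.41 CPM there, against 7.95 and 9.93 CPM in wing E9, 30.2 and 39.1 CPM in thigh E9 and 18.4 and 17.4 CPM in dorsal E9 (-1.27 ± 0.17, adjusted p 0.000164; -0.82 without the thigh E9 libraries). FAS, a death receptor, was higher, with 3.95 and 4.49 CPM in scale E9, against 1.91 and 2.09 CPM in wing E9, 0.31 and 0.42 CPM in thigh E9 and 3.12 and 1.64 CPM in dorsal E9 (1.13 ± 0.19, adjusted p 0.000887; 0.73 without the thigh E9 libraries). Both were called without the thigh libraries too. The row named tvb, matched to TNFRSF10B, was higher in dorsal E9, with 3.93 and 3.29 CPM, against 0.74 and 1.65 CPM in dorsal E7 (1.10 ± 0.25, adjusted p 0.00669). Its call ended without dorsal E7 replicate 1 (0.80, adjusted p 0.11) or dorsal E9 replicate 1 (1.0, adjusted p 0.0612), and with the keratinocyte covariate (0.93, adjusted p 0.119).

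Placode and bud genes were read from a list of 23 measured rows, among them genes known to act below or beside EDAR. Of these, 10 were higher and 4 lower in dorsal E9 against dorsal E7, where 20.1% of all rows were called (median 0.22, and 0.031 over all rows). In scale E9 against the feather mean 6 were higher and 6 lower, where 16.6% of all rows were called (median -0.18, and -0.014 over all rows). In scale E11 against scale E9 5 were higher and none lower, where 5.83% of all rows were called (median 0.00, and 0.008 over all rows). SOSTDC1, a secreted BMP and WNT inhibitor of the placode border, was high in dorsal E9, as Edar was. It stood at 29.3 and 12.8 CPM in dorsal E9, against 1.69 and 0.97 CPM in dorsal E7 (3.15 ± 0.36, adjusted p 3.64e-05 in limma), and at 1.45 to 3.74 CPM in the scale, wing and thigh libraries. FST, an activin and BMP antagonist, stood at 98.1 and 106 CPM in dorsal E9, against 15.8 and 19.7 CPM in dorsal E7 (2.47 ± 0.23, adjusted p 6.99e-06). Outside the back FST averaged 25.2 in scale E11, 12.3 in scale E9, 23.7 in wing E9 and 68.5 CPM in thigh E9. It was thus not confined to dorsal E9 as Edar was.

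PTCH1, the hedgehog receptor and a target of that pathway, stood at 290 and 340 CPM in dorsal E9, against 45.0 and 56.0 CPM in dorsal E7 (2.62 ± 0.19, adjusted p 6.96e-07 in limma). Unlike Edar, PTCH1 was also high outside the back. It averaged 205 in scale E11, 86.9 in scale E9, 187.5 in wing E9 and 161.9 CPM in thigh E9. KREMEN1, a receptor for DKK inhibitors of WNT, was lower, with 13.0 and 16.8 CPM in dorsal E9, against 59.8 and 65.4 CPM in dorsal E7 (-2.01 ± 0.20, adjusted p 1.51e-05). Like TNFRSF19, KREMEN1 had its lowest level in dorsal E9 and its highest in scale E9, at 107 and 85.7 CPM (1.47 ± 0.17 against the feather mean, adjusted p 4.79e-05; 0.90 without the dorsal E9 libraries, adjusted p 0.00526). FST was lower in scale E9 than in the feather mean (-2.12 ± 0.19, adjusted p 6.83e-06). The ligands Wnt6 (2.04 ± 0.37, adjusted p 0.00167) and Wnt10a (1.64 ± 0.39, adjusted p 0.00987) were higher in scale E9, and both calls ended without scale E9 replicate 2 (1.54, adjusted p 0.0666, and 1.09, adjusted p 0.21), the library with the highest keratinocyte marker sum. With the keratinocyte covariate Wnt6 was 0.96 (adjusted p 0.044) and Wnt10a was not called (0.52, adjusted p 0.391).

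In scale E11 against scale E9, where none of Edar, TNFRSF19 and NFKBIA was called, 5 genes of the placode list were called, all higher in scale E11, and the 4 of them with the largest differences are given here. PTCH1 differed by 1.22 ± 0.19, DKK3, a secreted protein of the DKK family, by 1.14 ± 0.17, BAMBI, a decoy receptor for BMP signals, by 1.10 ± 0.20 and FGF10, a dermal growth factor, by 1.04 ± 0.26, with adjusted p-values of 0.00177, 0.00142, 0.00602 and 0.0319 in limma. BAMBI was not called without scale E9 replicate 2 (1.11, adjusted p 0.0602) or scale E11 replicate 2 (1.0, adjusted p 0.0803). FGF10 was not called without dorsal E7 replicate 2 (1.04, adjusted p 0.0501), scale E9 replicate 2 (0.78, adjusted p 0.292), scale E11 replicate 1 (1.19, adjusted p 0.0732) or scale E11 replicate 2 (0.89, adjusted p 0.257), nor with the keratinocyte covariate (0.91, adjusted p 0.13).

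Markers of other cells moved with the same comparisons. The shares of all rows called were 16.6% in scale E9 against the feather mean, 20.1% in dorsal E9 against dorsal E7 and 5.83% in scale E11 against scale E9. Of the 23 keratinocyte markers 8 were higher and none lower in the first of these (median 0.86), 10 were higher and none lower in the second (median 1.01), and none was called in limma in the last (median -0.49). In that comparison 7 had an unadjusted p under 0.05, and edgeR called 0 and DESeq2 1. Of 17 endothelial markers 13 were lower in scale E9, 12 were higher in dorsal E9 than in dorsal E7 and 13 were higher in scale E11 than in scale E9. Their summed level was 1034 and 1045 CPM in scale E11, 498 and 345 CPM in scale E9, 499.9 and 645 CPM in wing E9, and 837 and 1034 CPM in thigh E9. It was 1707 and 1385 CPM in dorsal E9, against 755 and 770 CPM in dorsal E7. The highest endothelial sums were those of dorsal E9, where Edar was highest, and the lowest were those of scale E9, where NFKBIA was highest. The part of endothelial cells in the differences of the 3 genes was not tested. For keratinocytes only the covariate fit given above was run, and its slope rested on differences between replicates of a group.

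Markers of leukocytes, which can also hold NFKBIA, were set beside it. The comparison of scale E9 with the feather mean called 16.6% of all rows, and the counts below are to be read against that share. Of 14 macrophage and leukocyte markers 1 was higher and 1 lower in scale E9 against the feather mean (median 0.04), and their sum was 270 and 208 CPM in scale E9, against 214 and 220 CPM in wing E9, 473 and 335 CPM in thigh E9 and 352 and 253 CPM in dorsal E9. The higher marker was CD3E and the lower was RUNX3. RUNX3 averaged 31.3 CPM in scale E9, 71.5 CPM in wing E9, 199 CPM in thigh E9 and 67.1 CPM in dorsal E9, and so weighed heavily in these sums. NFKBIA is also induced by stress and tissue handling, so 21 immediate early and stress genes were set beside it. In scale E9 against the feather mean 1 of these was higher and 2 were lower (median -0.37), and their sum was 2327 and 3088 CPM in scale E9, against 3182 and 3284 CPM in wing E9, 4041 and 6117 CPM in thigh E9 and 3068 and 2590 CPM in dorsal E9. The part of leukocytes and of stress genes in the NFKBIA differences was not tested. Of 12 dermal fibroblast markers 1 was higher and 2 were lower in that comparison, and none of 6 Schwann cell rows was called in limma, edgeR or DESeq2, with 2 at an unadjusted p under 0.05.

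Genes with a pattern like each of the 3 were ranked by Pearson's r of log2(CPM + 1) over the 12 libraries. The ranking covered 8898 other rows with a symbol of their own and a mean of at least 5 CPM. The libraries of a group share their source, so the r values are descriptions. Genes picked for likeness share the high and low groups of the member by that choice. Such shared peaks and dips are therefore no separate result. Among the 5 most like Edar were C3H2ORF43 (r = 0.941), GCH1 (0.935), HIBADH (0.929) and AKAP7 (0.924). These 4 had their highest mean in dorsal E9. GCH1, the first enzyme of tetrahydrobiopterin synthesis, averaged 33.7 CPM in dorsal E9 and 2.92 to 5.06 CPM in the other groups. C3H2ORF43 averaged 90.0 CPM in dorsal E9 and 44.6 to 49.8 CPM elsewhere, a much smaller contrast than that of Edar.

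The 5 most like TNFRSF19 were KIAA1143 (r = 0.916), APITD1 (0.899), BID (0.891), PCP4 (0.884) and FAM64A (0.878), and all had their lowest mean in dorsal E9. PCP4, a calmodulin-binding protein, ranged most, with means of 22.4 CPM in scale E11, 55.0 in scale E9, 58.1 in wing E9, 21.1 in thigh E9, 4.89 in dorsal E9 and 24.5 in dorsal E7. The 5 most like NFKBIA were SRSF6 (0.956), SOHO-1 (0.951), FZD6 (0.947), KIAA0907 (0.945) and PYGL (0.944), and all had their lowest mean in thigh E9. The lowest library of each, as of NFKBIA, was thigh E9 replicate 2, which also stood apart in its column total. Its weight in these r values was not tested. SOHO-1, a homeobox gene known from chicken sensory organs, averaged 53.4 CPM in scale E11, 56.6 in scale E9, 16.8 in wing E9, 9.65 in thigh E9, 24.2 in dorsal E9 and 29.0 in dorsal E7. FZD6, a WNT receptor of planar cell polarity, averaged 50.5 CPM in scale E9 and 25.3 CPM in thigh E9.

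**Figure D5:**
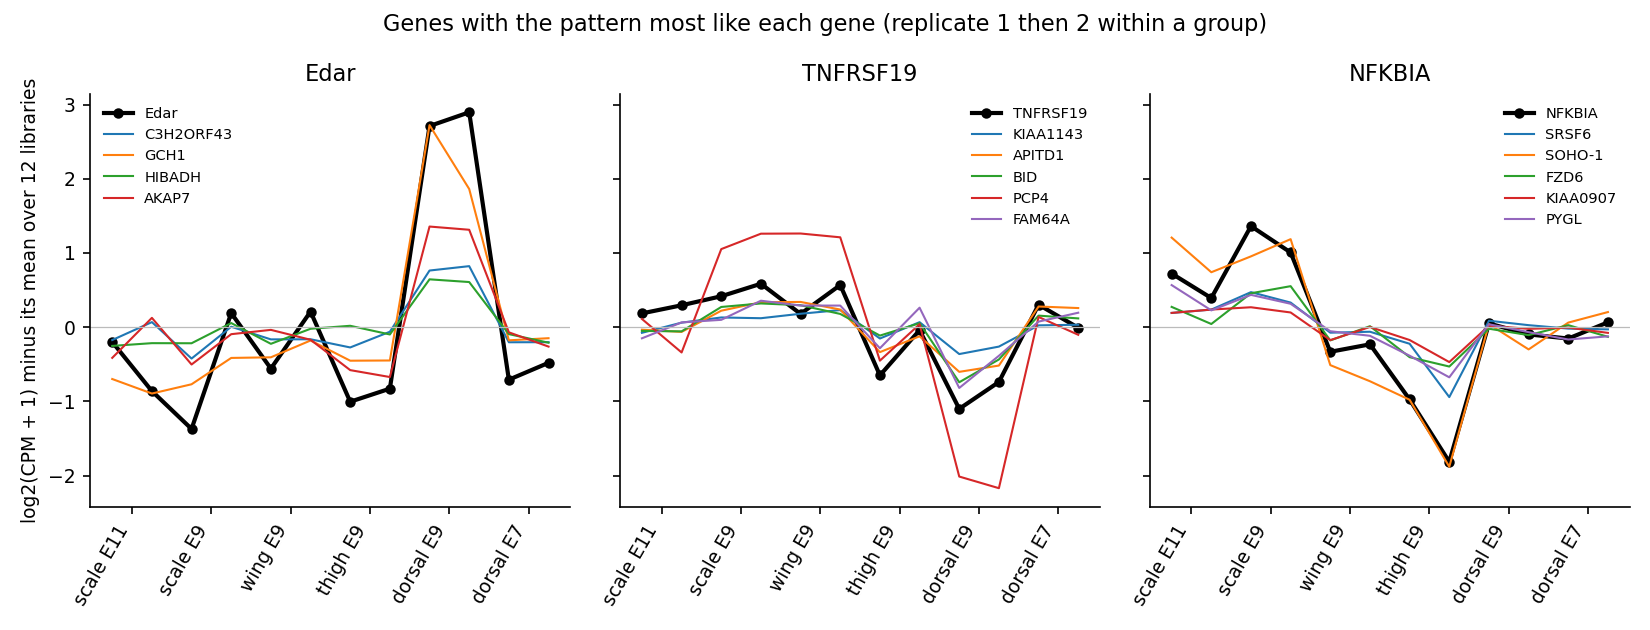
Log2(CPM + 1) minus its mean over 12 libraries (y axis) for Edar, TNFRSF19 and NFKBIA (black) and genes among the 5 with the highest Pearson's r to each (coloured; 4 for Edar, 5 for TNFRSF19 and for NFKBIA), by group with replicate 1 before replicate 2 (x axis); lines only join the points of a gene. The genes shown for Edar peak in dorsal E9, those most like TNFRSF19 dip there, and those most like NFKBIA dip in thigh E9. They were picked for such likeness.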

How the data were processed

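Per the labels, TruSeq V2 libraries were made from Trizol extracts of skin of untreated White Leghorn embryos. The deposited table gives signal as CPM on an effective library size, 1 row per versioned Ensembl transcript, and low rows are absent. In 1300 of 12297 rows the symbol is only the transcript identifier, and 317 rows share a symbol with another row. The submitters' processing notes name HTSeq, edgeR, Partek and TopHat2 and the genome build galGal4, without versions or roles. In each of the 12 libraries 100.0% of nonzero values up to 100 CPM were whole multiples of 1 read (0.0475 to 0.0736 CPM) within 0.0055 CPM, which allowed reads to be recovered. For thigh E9 replicate 2 a coarser fit left fewer values whole, so its read counts are less certain. Whether counting used strand is not given in the sources used here, so reads of overlapping antisense genes cannot be told apart.

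Values were analysed as log2(CPM + 1), which understates fold changes at low CPM. Of 12297 rows 12277 had at least 1 CPM in at least 2 libraries. A model with 1 mean per group was fitted to all 12 libraries in limma 3.58.1 (R 4.3.3) with a mean-variance trend (6 residual and 6.95 prior degrees of freedom). Tests were two-sided, with Benjamini-Hochberg adjustment over all rows within each of 17 comparisons and calls at an adjusted p under 0.05. The step was also run on simulated counts with the same spread setting for every row and library, and with changes in scale E9 only. That run does not cover the uneven spread between replicates seen here.

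Named genes were the 3 members, all measured EDA pathway genes, up to 4 called genes with the largest change per main comparison in the NF-kB, receptor and placode lists, and the 5 most alike genes, 1 of which is not reported here; HINTW marks a group standing apart. The 3 main comparisons set scale E9 against the equal-weighted mean of wing, thigh and dorsal E9, dorsal E9 against dorsal E7, and scale E11 against scale E9. Leading genes of the cell type and stress lists are given as counts and sums only, apart from the called leukocyte markers CD3E and RUNX3. The members, lists and tests were chosen with earlier results of these data known. Symbols were matched through RefSeq names, and no coordinates were used. The keratinocyte covariate was the mean of log2(CPM + 1) over the keratinocyte marker list in each library, centred over the libraries. It is not the summed CPM of these markers. Alternatives were pseudocounts of 0.5 and 2 CPM, no filter or 5 CPM, quantile normalization, median-of-ratios scaling, no trend, only the groups compared, the replicate number as a block, leaving out each library or a feather group, and edgeR 4.0.16 and DESeq2 1.42.0 on recovered reads.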

Additional observations from a re-analysis of the deposited data

Results flagged for a closer look

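The change with age differed between scale skin (scale E11 minus scale E9) and dorsal skin (dorsal E9 minus dorsal E7) by the test of that difference in limma for Edar and for 5 of the other genes named above. This contrast called 4.98% of all rows. The 5 other genes were named for their large change in dorsal E9 against dorsal E7. That change is part of the tested difference, so their calls follow in part from how they were named. For Edar the difference was -3.34 ± 0.58 (adjusted p 0.00482 in limma). With the keratinocyte covariate it was -1.70 and was not called (adjusted p 0.203 in limma). The difference was -2.48 ± 0.36 for NGFR, -3.54 ± 0.50 for SOSTDC1, -1.45 ± 0.33 for FST, -1.40 ± 0.26 for PTCH1 and 1.61 ± 0.29 for KREMEN1. Their adjusted p-values in limma were 0.00119, 0.00117, 0.0218, 0.00798 and 0.00581. Alternatives of this contrast are given for Edar, TNFRSF19 and NFKBIA only. NGFR, PTCH1 and FST were higher on the later day in both skins, and by more in dorsal skin. FST averaged 25.2 CPM in scale E11 and 12.3 CPM in scale E9. All 6 differences rest on the same 4 groups, and the ages of the intervals differ. Among those groups only dorsal E9 lacked W transcripts, so age and embryo sex cannot be told apart in the dorsal change.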

How the results depend on the processing

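Of 318 values of Edar, TNFRSF19 and NFKBIA in the 3 main comparisons and the contrast of changes with age under the alternatives, 291 kept direction and call. Edar in dorsal E9 against dorsal E7 was called in 26 of 26 alternatives (2.33 to 3.62), and NFKBIA in scale E9 against the feather mean in 27 of 27 (1.34 to 2.02). Edar in scale E9 against the feather mean was not called with only the groups compared (-1.16), with edgeR (-1.0) or without the dorsal E9 libraries (-0.05), and was -1.94 to -0.38 without 1 library. The contrast of its changes with age was -1.70 with the keratinocyte covariate, which was chosen after seeing the data. TNFRSF19 in scale E9 against the feather mean was not called without the dorsal E9 libraries (0.49) or with that covariate (0.73), and was 0.70 to 0.90 without 1 library; in dorsal E9 against dorsal E7 it was -1.25 to -0.89. The contrast of its changes was called with only the groups compared (0.81). NFKBIA in scale E11 against scale E9 was called without the thigh E9 libraries (-0.63), and was -0.80 to -0.45 without 1 library. The cause of these shifts was not tested.

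Uncalled values near 0 changed sign. Edar in scale E11 against scale E9 (0.06) was -0.09 with quantile normalization, -0.14 with edgeR and with DESeq2, and -0.72 to 0.84 without 1 library. NFKBIA in dorsal E9 against dorsal E7 (0.02) was -0.00 with median-of-ratios scaling, -0.01 with quantile normalization and with DESeq2, -0.09 with the covariate and -0.09 to 0.13 without 1 library. Edar in scale E9 against dorsal E7 (0.00) was -0.02 with a pseudocount of 0.5 CPM, -0.00 with median-of-ratios scaling, -0.06 with quantile normalization, -1.99 with the covariate and -0.78 to 0.78 without 1 library. Edar in scale E11 against dorsal E7 (0.06) was -0.15 with quantile normalization, -1.36 with the covariate and -0.27 to 0.40 without 1 library. With the covariate Edar was -0.43 in scale E9 against thigh E9 and -0.52 in wing E9 against dorsal E7, and TNFRSF19 was -0.01 in scale E11 against dorsal E7. Without 1 library Edar was -0.45 to 1.11 in scale E9 against thigh E9, -1.20 to 0.36 in scale E9 against wing E9 and -0.74 to 0.03 in scale E11 against wing E9. TNFRSF19 was then -0.07 to 0.32 in scale E9 against wing E9, -0.33 to 0.06 in scale E11 against wing E9 and -0.06 to 0.25 in scale E11 against dorsal E7.

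Called rows numbered 2042 in scale E9 against the feather mean, and 1026 to 3758 without 1 library. In dorsal E9 against dorsal E7 they numbered 2471, 4405 with only the groups compared, and 1303 to 3652 without 1 library. In scale E11 against scale E9 they numbered 716, 1349 without the thigh E9 libraries and 205 to 1347 without 1 library. Nothing says that replicate numbers pair samples, and deviations of same-numbered samples correlated at -0.10 to 0.23 between groups, over 0.1 in 5 of 15 pairs. With the replicate block Edar was -1.16 in scale E9 against the feather mean (adjusted p 0.0239), and 2 calls were gained, TNFRSF19 in thigh E9 against dorsal E9 (0.57, adjusted p 0.0412) and in scale E11 against thigh E9 (0.59, adjusted p 0.0396). Low reads limit Edar outside dorsal E9, and 2 libraries per group limit every comparison.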

Other observations

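Over the 12 libraries Pearson's r of log2(CPM + 1) was -0.65 between Edar and TNFRSF19, 0.37 between TNFRSF19 and NFKBIA and 0.03 between Edar and NFKBIA. The 2 dorsal E9 libraries are the highest in Edar and the lowest in TNFRSF19, and libraries of a group share their source.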
